A study of Mus musculus with 6 samples.

Results

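Transcripts of 10 RNA-binding proteins that choose exons in muscle were followed from C2C12 myoblasts to myotubes: the muscleblind-like genes Mbnl1, Mbnl2 and Mbnl3, the CELF genes Celf1 and Celf2, Rbfox2, the polypyrimidine tract-binding genes Ptbp1 and Ptbp2, and Rbm20 and Rbm24. They were chosen by gene symbol, and all 10 were among the 27179 genes of the count table. C2C12 is a mouse line of muscle precursor cells, which proliferate as single cells in growth medium and join into multinucleated fibres in low serum. The myoblasts of 3 libraries were grown below confluence in high glucose DMEM with 10% FBS. For the 3 myotube libraries, cultures stayed at 100% confluence for 3 days before 5 days in 2% horse serum with an insulin, transferrin, selenium and ethanolamine supplement. Both media contained high glucose and 4 mM L-glutamine, and all 6 libraries came from the same line with no genetic change named. Serum, supplement, cell density and differentiation differ together between the groups and cannot be told apart. The labels name a triplicate harvest and nothing on separate cultures. The p-values therefore reflect the spread among these samples alone, and that spread may be technical.

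Splicing regulators bind short motifs in the pre-mRNA and promote or block the inclusion of nearby exons. MBNL proteins favour the exon choices of mature muscle and are sequestered by repeat RNA in myotonic dystrophy, while CELF proteins oppose them on many of the same exons. RBFOX proteins bind a GCAUG element, and depending on its position they enhance or silence exons. PTBP1 mainly represses exons of muscle and neurons, and its paralog PTBP2 is a weaker repressor known from neurons. RBM20 controls titin isoforms in striated muscle, and RBM24 promotes exons specific to heart and skeletal muscle.

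Depth was 10076945 to 11723881 counts in myoblast libraries and 7370169 to 8339589 in myotube libraries. The labelled state matched its markers. All 10 skeletal myotube markers rose, with a summed level of 1273 to 1349 CPM (read counts normalised to library size, with sizes scaled by the trimmed mean of M-values, TMM) in myoblasts and 18367 to 18984 in myotubes. Most of the myoblast sum was desmin (Des), which smooth muscle shares; the other 9 summed to 81.2 to 101 CPM in myoblasts and 15750 to 16355 CPM in myotubes. All 8 markers of proliferating myoblasts fell, though the groups overlapped for Myf5 (adjusted p = 0.0463 by edgeR's quasi-likelihood test) and 6 of 13 alternatives called 7 of the 8. The falls were unequal. Myod1 and Myf5, picked once their values were known, stayed at 89.6% and 91.2% of their myoblast level. The 8 genes summed to 2141 to 2156 CPM in myoblasts and 360 to 370 CPM in myotubes. In bulk RNA, fewer cells of a type and less RNA per cell cannot be told apart, and the fall of the proliferation markers moved with the falls of Ptbp1 and Mbnl3 below; its part in them was not tested.

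Of the 10 regulators, 3 moved far and the others little. Rbm24 rose 45.5-fold, Mbnl3 fell to 11.6% of its myoblast level and Ptbp1 to 22.8%, whereas Mbnl1 fell to 59.7% and the means of the other 6 stood at 0.869 to 1.30 times their myoblast values. All 10 passed the filter on low counts. In the edgeR quasi-likelihood test, adjusted by Benjamini-Hochberg over 12800 genes, 4 rose (Rbm24, Rbfox2, Celf2 and Celf1), 4 fell (Mbnl3, Ptbp1, Mbnl1 and Ptbp2), and Mbnl2 and Rbm20 did not pass an adjusted p of 0.05. Of all genes tested 79.5% passed, 40.2% higher and 39.2% lower, so 8 of 10 is close to the background. The libraries of the 2 groups did not overlap for the same 8 members, and for 80.5% of all genes tested. The test against a 2-fold change called Rbm24 as higher and Mbnl3 and Ptbp1 as lower, where the background was 12.4% higher and 9.20% lower, 21.6% in all. The median log2 change of the 10 genes was 0.03, beside 0.02 over all genes tested. Scaling by total counts shifted the median of all genes by −0.15 on the log2 scale and gave 3 of the 10 higher and 5 lower.

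**Figure D1:**
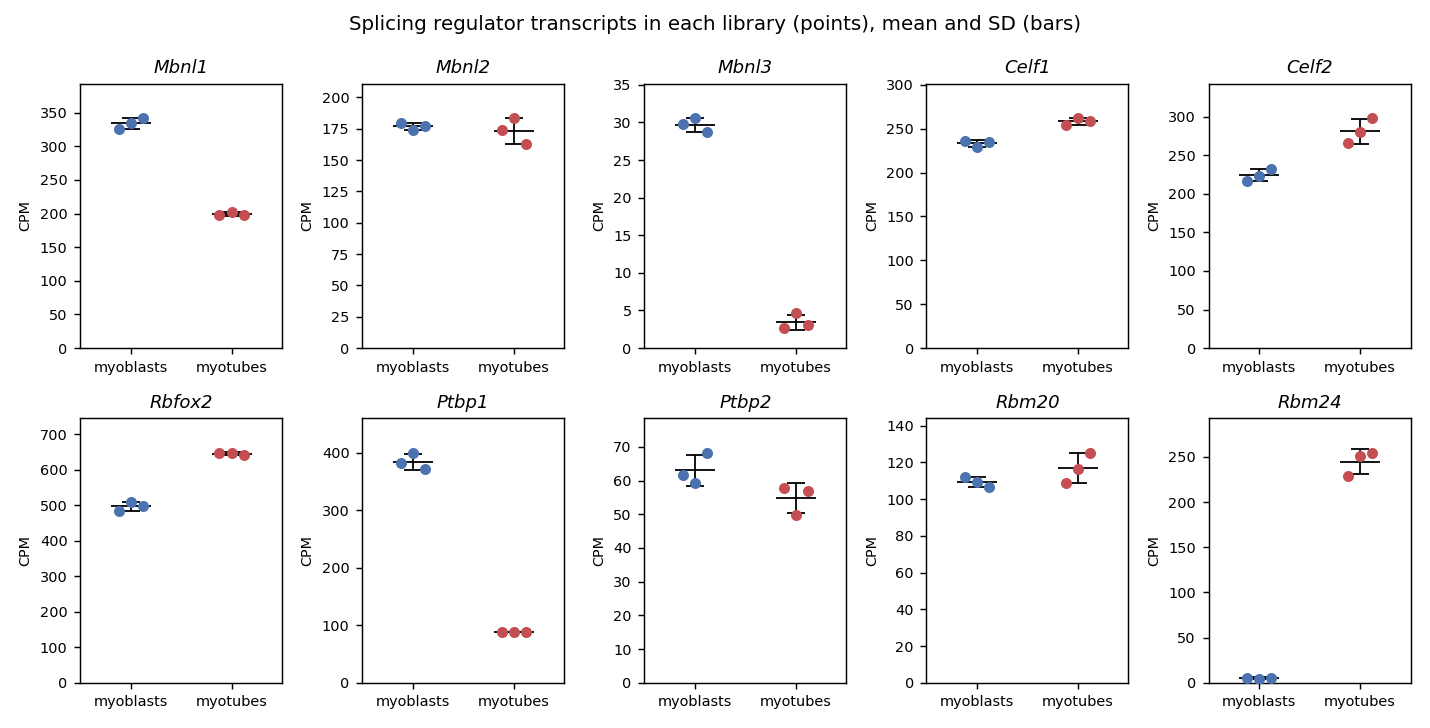
Level of each regulator in CPM (vertical axes, each starting at 0) in the 3 myoblast and 3 myotube libraries. Points are libraries, horizontal bars are means and error bars SD; Rbm24 lies between 4.55 and 5.84 CPM in myoblasts and between 229 and 254 CPM in myotubes, while the groups overlap for Mbnl2 and Rbm20.

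**Figure D2:**
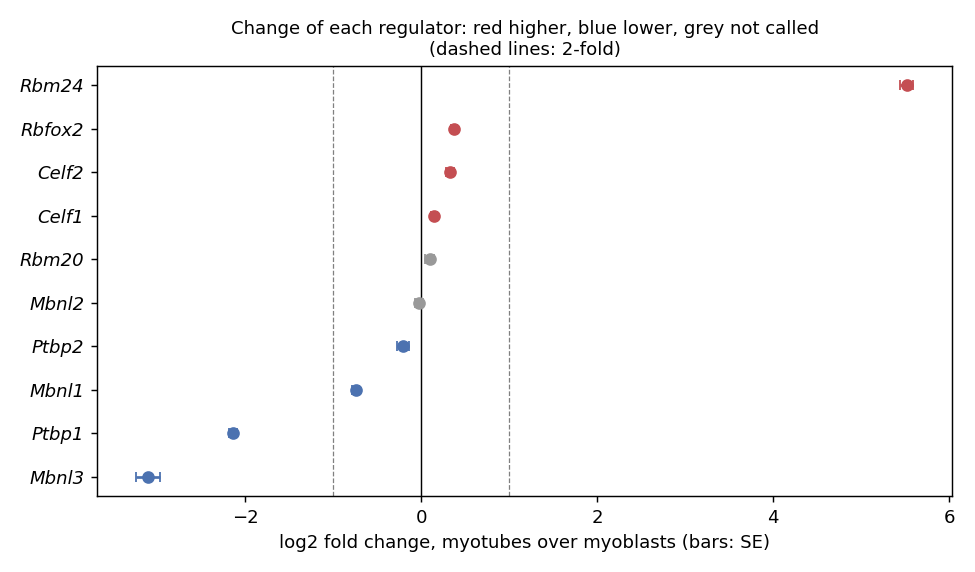
Log2 fold change of myotubes over myoblasts for each regulator (horizontal axis), with the SE as bars and dashed lines at a 2-fold change. Rbm24, at 5.51, Ptbp1, at −2.13, and Mbnl3, at −3.10, lie outside the dashed lines.

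Rbm24, which promotes muscle-specific exons and also binds and stabilises messages such as that of myogenin, was the member with the largest change. It had 5.75, 4.55 and 5.84 CPM in myoblast libraries 1, 2 and 3 and 229, 251 and 254 CPM in myotube libraries 1, 2 and 3. The groups lay far apart, and the myoblast values still rested on 56 to 64 reads per library. The log2 change was 5.51 (SE 0.08, adjusted p = 2.34e-27 by edgeR's quasi-likelihood test), and 2.64% of all genes tested rose at least as far. Its level relative to the other members turned round as well. Per kilobase of the longest annotated transcript (RPKM), Rbm24 was the lowest of the 10 in myoblasts, at 1.74 ± 0.233 RPKM (SD, n = 3), and the second highest in myotubes, at 79.3 ± 4.45 RPKM. Its paralog Rbm38, which binds similar U-rich and GU-rich elements, rose too. Its level was 11.8 ± 0.585 CPM in myoblasts and 146 ± 4.92 CPM in myotubes, a log2 change of 3.63 (SE 0.07, adjusted p = 7.47e-25 by the same test). However, 13.4% of the exon bases of Rbm38 overlap antisense transcripts, so its count is uncertain. Rbm38 was the more abundant of the pair in myoblasts, where Rbm24 made up 25.2 ± 3.25% of their summed RPKM, against 55.3 ± 0.808% in myotubes.

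Ptbp1, the repressor of muscle and neuronal exons, was the most abundant of the 10 per length in myoblasts, at 121 ± 4.50 RPKM, and the seventh in myotubes by the longest transcript, at 27.6 ± 0.0135 RPKM. It had 381, 400 and 371 CPM in the myoblast libraries and 87.6, 87.6 and 87.5 CPM in the myotube libraries. Every myotube value lay below every myoblast value, and the log2 change was −2.13 (SE 0.04, adjusted p = 1.17e-23 by edgeR's quasi-likelihood test); 3.66% of all genes tested fell at least as far. In the annotation, 20.7% of the exon bases of Ptbp1 overlap antisense transcripts, among them Plppr3, and 22.6% of its 50-base windows occur in another gene. The strand setting, not given in the sources used here, leaves its count uncertain to that extent. Plppr3 itself went the other way, from 16.6 ± 0.574 to 26.5 ± 5.10 CPM, and E130317F20Rik, which also overlaps Ptbp1, was at 3.66 ± 0.357 and 3.14 ± 0.153 CPM and did not pass (adjusted p = 0.336 by the same test).

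Ptbp2, the paralog known from neurons, had 61.7, 59.2 and 68.2 CPM in myoblasts and 57.7, 49.7 and 57.0 CPM in myotubes. The groups did not overlap, but the highest myotube value came close to the lowest myoblast value. The log2 change was −0.20 (SE 0.07, adjusted p = 0.00944 by edgeR's quasi-likelihood test). This call was lost without myoblast library 3 (log2 change −0.14, adjusted p = 0.0686) and without myotube library 2 (log2 change −0.14, adjusted p = 0.0946), with adjusted p-values of 5.62e-05 to 0.0946 in 13 alternatives. Because Ptbp1 fell much further, the log2 ratio of Ptbp2 over Ptbp1 CPM went from −2.63, −2.76 and −2.45 in the myoblast libraries to −0.60, −0.82 and −0.62 in the myotube libraries, a difference of 1.93. Per length, Ptbp1 was the more abundant of the pair in all 6 libraries. The third family member Ptbp3, first described in blood cells, fell by 0.97 on the log2 scale (SE 0.05, adjusted p = 2.71e-16 by the same test). The summed PTB level fell from 174 ± 2.36 to 60.3 ± 0.491 RPKM, and within it the share of Ptbp1 went from 69.5 ± 1.84 to 45.8 ± 0.377%, that of Ptbp2 from 8.94 ± 0.732 to 22.4 ± 1.65% and that of Ptbp3 from 21.5 ± 1.11 to 31.8 ± 1.32%.

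Mbnl3, an MBNL protein known mainly from undifferentiated muscle cells and regeneration, had 29.7, 30.6 and 28.7 CPM in myoblasts and 2.71, 4.60 and 3.03 CPM in myotubes. The highest myotube value was far below the lowest myoblast value, and it rested on 19, 34 and 24 reads in the 3 myotube libraries. The log2 change was −3.10 (SE 0.14, adjusted p = 1.42e-16 by edgeR's quasi-likelihood test), and 1.76% of all genes tested fell at least as far. Mbnl3 was the lowest of the 10 per length in myotubes, at 0.742 ± 0.218 RPKM, against 6.38 ± 0.198 RPKM in myoblasts.

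The start regions of these 3 far-moving genes are shown because their transcripts changed more than 2-fold. Each window runs from 250 bases before to 50 bases after the start used for the promoter. For Rbm24 that start lies downstream of the gene start at 46418102 given below, so most of its window lies inside the gene. The windows come from the RefSeq promoter table of the mouse assembly GRCm38.p6, which held windows for 8 of the 10 genes. They are written 5′ to 3′ on the strand of the gene. Capitals mark E-boxes, CANNTG on either strand, the motif that myogenic and other helix-loop-helix factors bind.
Rbm24 chr13:46418050-46418349 (plus strand): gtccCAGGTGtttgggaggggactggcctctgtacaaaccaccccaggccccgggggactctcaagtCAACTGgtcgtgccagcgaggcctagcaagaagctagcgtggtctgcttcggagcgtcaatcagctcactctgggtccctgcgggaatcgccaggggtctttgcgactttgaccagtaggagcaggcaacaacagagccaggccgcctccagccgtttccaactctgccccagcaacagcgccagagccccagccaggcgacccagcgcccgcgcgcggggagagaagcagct
Ptbp1 chr10:79854182-79854481 (plus strand): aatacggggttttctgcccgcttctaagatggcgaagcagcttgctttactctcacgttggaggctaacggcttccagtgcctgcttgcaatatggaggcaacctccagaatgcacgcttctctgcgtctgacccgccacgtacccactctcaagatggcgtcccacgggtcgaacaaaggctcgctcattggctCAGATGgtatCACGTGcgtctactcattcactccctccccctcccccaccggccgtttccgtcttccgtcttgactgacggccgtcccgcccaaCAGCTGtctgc
Mbnl3 chrX:51205941-51206240 (minus strand): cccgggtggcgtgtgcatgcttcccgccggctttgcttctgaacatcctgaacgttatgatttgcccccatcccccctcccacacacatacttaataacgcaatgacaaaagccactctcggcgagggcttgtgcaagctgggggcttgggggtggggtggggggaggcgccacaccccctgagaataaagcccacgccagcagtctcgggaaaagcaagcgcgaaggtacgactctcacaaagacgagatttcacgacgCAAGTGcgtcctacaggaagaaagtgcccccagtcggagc
Rbm24 held CAGGTG at base 5 and CAACTG at base 68 of the window, counted from its first base, and Mbnl3 held CAAGTG at base 261. Ptbp1 held CAGATG at base 196, CACGTG at base 206 and CAGCTG at base 290. An E-box stood in 8 of the 13 windows of the 8 genes and in 72.3% of the 32851 windows of the table. Those windows belong to Celf2, Mbnl1, Mbnl3, Ptbp1 and Rbm24. Several are from Celf2, where overlapping windows count the same sites more than once. CAGCTG, an E-box word often bound by myogenic factors and a subset of CANNTG, stood only in the Ptbp1 window among the 13, and in 16.3% of all windows. The MEF2 motif, searched by name on both strands, was in 0 of the 13 and in 3.19% of all windows, and the AP-1 word TGACTCA in 0 and 5.20%. The E2F word TTTCCCGC stood in 1 of the 13, the second window of Mbnl1, and in 1.07% of all. The GC box GGGCGG stood in 7 of the 13, from Celf1, Celf2, Mbnl1, Mbnl2, Ptbp1 and Ptbp2, and in 35.7% of all. The windows of Rbm24, Ptbp1 and Mbnl3 had a GC content of 64.7%, 58.3% and 59.0% and held 18, 22 and 19 CpG dinucleotides, against medians of 52.7% and 7 over all windows.

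Mbnl1 and Mbnl2 are the MBNL proteins of adult muscle, with MBNL1 the main one in skeletal muscle. Mbnl1 had 326, 334 and 342 CPM in myoblasts and 197, 202 and 198 CPM in myotubes, so that every myotube library was lower. Its log2 change was −0.74 (SE 0.04, adjusted p = 4.75e-15 by edgeR's quasi-likelihood test). Mbnl2 had 180, 174 and 177 CPM in myoblasts and 174, 184 and 163 CPM in myotubes; the groups overlapped, and myotube libraries 2 and 3 stood above and below all myoblast values. Its log2 change was −0.03 (SE 0.05, adjusted p = 0.572); with scaling by total counts it was −0.17 and passed (adjusted p = 0.00110, range over 13 alternatives 0.00110 to 0.749), and without myotube library 3 its sign turned (log2 change 0.016). Within the summed MBNL level, which fell from 97.3 ± 1.11 to 67.2 ± 2.40 RPKM, the share of Mbnl2 went from 32.7 ± 0.729 to 46.4 ± 1.22%, that of Mbnl1 from 60.7 ± 0.828 to 52.5 ± 1.37% and that of Mbnl3 from 6.57 ± 0.259 to 1.10 ± 0.285%. Which of Mbnl1 and Mbnl2 led in myotubes depends on the length used. Per kilobase of the union of all annotated exons, Mbnl1 stood at 17.8 ± 0.436 and Mbnl2 at 14.8 ± 0.233 RPKM in myoblasts. In myotubes, Mbnl1 stood at 10.7 ± 0.143 and Mbnl2 at 14.5 ± 0.865 RPKM on that scale. By reads alone, Mbnl3 took 5.56, 5.67 and 5.25% of the MBNL CPM in the myoblast libraries and 0.724, 1.18 and 0.832% in the myotube libraries.

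Celf1 and Celf2 are the broadly expressed CELF proteins, which antagonise MBNL on several exons and also promote the decay of messages with GU-rich elements. Celf1 had 236, 229 and 234 CPM in myoblasts and 254, 262 and 258 CPM in myotubes, without overlap. Its log2 change was 0.15 (SE 0.04, adjusted p = 0.00135 by edgeR's quasi-likelihood test). The rise is of the size of the scaling shift: with total counts in place of TMM the log2 change was 0.00091 and the call was lost (adjusted p = 0.984, range over 13 alternatives 0.000888 to 0.984). Celf2 had 217, 223 and 232 CPM in myoblasts and 265, 280 and 298 CPM in myotubes, again without overlap. Its log2 change was 0.33 (SE 0.04, adjusted p = 2.63e-07 by the same test) and stayed called in all 13 alternatives, between 0.18 and 0.37; 7.58% of its exon bases overlap an antisense transcript. Celf2 took 49.0 ± 1.03% of the summed Celf1 and Celf2 CPM in myoblasts and 52.1 ± 1.32% in myotubes. Of the other CELF genes, Celf4 fell from 10.9 ± 0.953 to 3.68 ± 1.24 CPM (log2 change −1.58) and Celf5 from 3.02 ± 0.579 to 1.36 ± 0.528 CPM (log2 change −1.15), while Celf3 and Celf6, with 21 and 8 reads in all, were too low to test.

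The balance between the 2 antagonistic families moved toward CELF at the transcript level. The log2 ratio of summed Mbnl1, Mbnl2 and Mbnl3 CPM over summed Celf1 and Celf2 CPM was 0.24, 0.25 and 0.23 in the myoblast libraries and −0.47, −0.47 and −0.61 in the myotube libraries. The myoblast libraries were alike, and the myotube libraries were all lower, with library 3 the lowest. Which side of 0 a library lies on depends on the length scale. Per kilobase of the longest transcript the ratio was 0.82, 0.84 and 0.81 in the myoblast libraries and 0.10, 0.10 and −0.03 in the myotube libraries, and with the union of exons the myoblast mean was −0.01 and the myotube mean −0.70. The difference was −0.76 by CPM, and it was −0.77 per kilobase of the longest transcript, −0.69 per kilobase of the union of exons and −0.73 with all 6 CELF genes. Since 3 against 3 libraries cannot give an exact permutation p below 0.1, these ratios are given as descriptions.

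**Figure D3:**
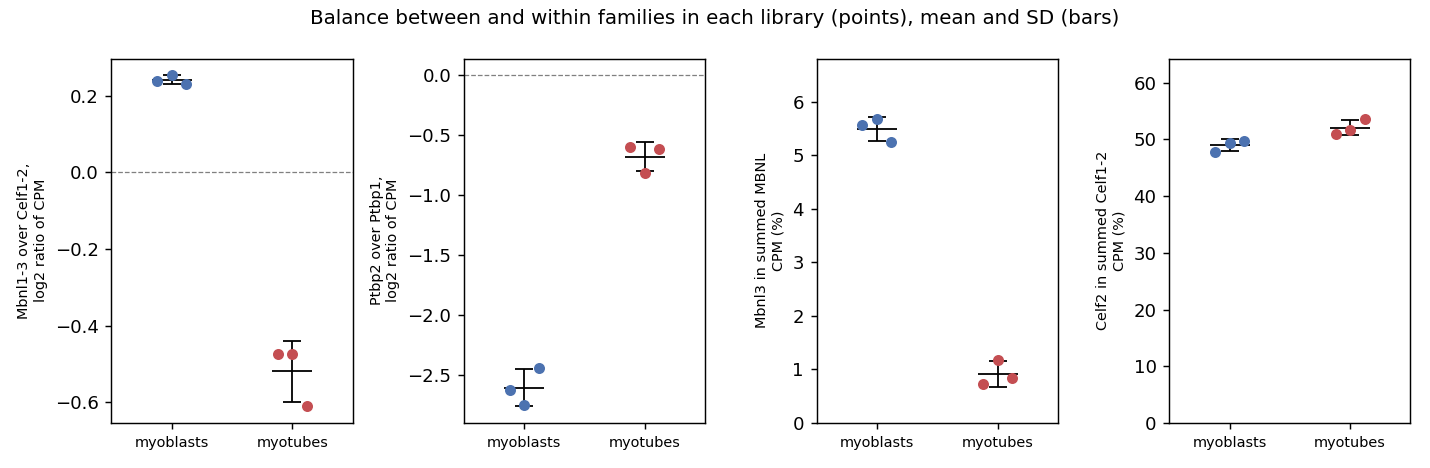
Balance between and within families in each library: log2 ratio of summed MBNL over Celf1 and Celf2 CPM, log2 ratio of Ptbp2 over Ptbp1, and the shares of Mbnl3 in MBNL and of Celf2 in Celf1 and Celf2 CPM (vertical axes). Points are libraries, bars mean and SD; the MBNL over CELF ratio of CPM is lower in the 3 myotube libraries than in the 3 myoblast libraries, and its position against 0 depends on the length scale.

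Rbfox2, the RBFOX protein that acts on muscle exons such as those of Mef2d, was the member with the highest level per length in myotubes, at 93.4 ± 0.486 RPKM, and the second in myoblasts, at 71.9 ± 1.75 RPKM. It had 484, 508 and 498 CPM in myoblasts and 647, 647 and 641 CPM in myotubes. All myotube values were higher, with a log2 change of 0.38 (SE 0.04, adjusted p = 8.13e-10 by edgeR's quasi-likelihood test), and the call held in all 13 alternatives, between 0.23 and 0.39. Rbfox1, the paralog typical of mature muscle, heart and neurons, had 1, 4 and 1 reads in the myoblast libraries and 28.6 ± 3.78 CPM in myotubes (log2 change 7.23, SE 0.25, adjusted p = 5.53e-19 by the same test). Rbfox1 nevertheless made up only 9.08 ± 1.06% of the RBFOX RPKM in myotubes, against 0.0762 ± 0.0588% in myoblasts, and the rest was Rbfox2 apart from 1 read of Rbfox3 in the myoblast group.

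Rbm20, mutated in a form of dilated cardiomyopathy, had 112, 110 and 107 CPM in myoblasts and 109, 117 and 125 CPM in myotubes. The groups overlapped, and the myotube libraries differed from each other more than the myoblast libraries did. Its log2 change was 0.10 (SE 0.05, adjusted p = 0.0888 by edgeR's quasi-likelihood test). Without myotube library 1 it passed, at 0.14 (adjusted p = 0.0133), and scaling by total counts turned the sign, to −0.050, with adjusted p-values of 0.0133 to 0.463 in 13 alternatives. Rbm20 stood at 22.4 ± 0.544 RPKM in myoblasts and 23.9 ± 1.67 RPKM in myotubes. Cardiomyocyte markers in these libraries were low: Myl7 and Tbx5 were at 0 in all 6, and the 10 genes summed to 31.7 to 34.1 CPM in myoblasts and 51.5 to 60.1 CPM in myotubes. Of the 4 tested, Myh6 rose by 7.52 and Tnni3 by 2.00 on the log2 scale, while Nppb fell by 1.05 and Gata4, picked once its value was known, fell by 0.44; 22.6% of the windows of Myh6 are copied in other genes, among them other myosin heavy chains.

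The order of the members by level per length changed at both ends. In myoblasts it ran Ptbp1, Rbfox2, Mbnl1, Mbnl2, Celf1, Celf2, Rbm20, Ptbp2, Mbnl3 and Rbm24, and no neighbours overlapped between their 3 libraries. In myotubes it ran Rbfox2, Rbm24, Mbnl1, Celf1, Celf2, Mbnl2, Ptbp1, Rbm20, Ptbp2 and Mbnl3. There Celf1, Celf2 and Mbnl2 all overlapped one another. The order between genes depends on the length used. With the union of all annotated exons, which is 18717 bases for Mbnl1 against 5655 for its longest transcript, Mbnl1 was the fourth in myoblasts and the eighth in myotubes, and Ptbp1 was the fourth in myotubes. On that scale the myotube values of Mbnl1 overlapped those of Celf2, the gene next above it. Ptbp1 and Rbfox2 stayed at the top in myoblasts, Rbfox2 and Rbm24 in myotubes, and Mbnl3 was again the lowest in myotubes. The counts sum all exons of a gene, so they do not separate isoforms or measure the inclusion of any exon.

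**Figure D4:**
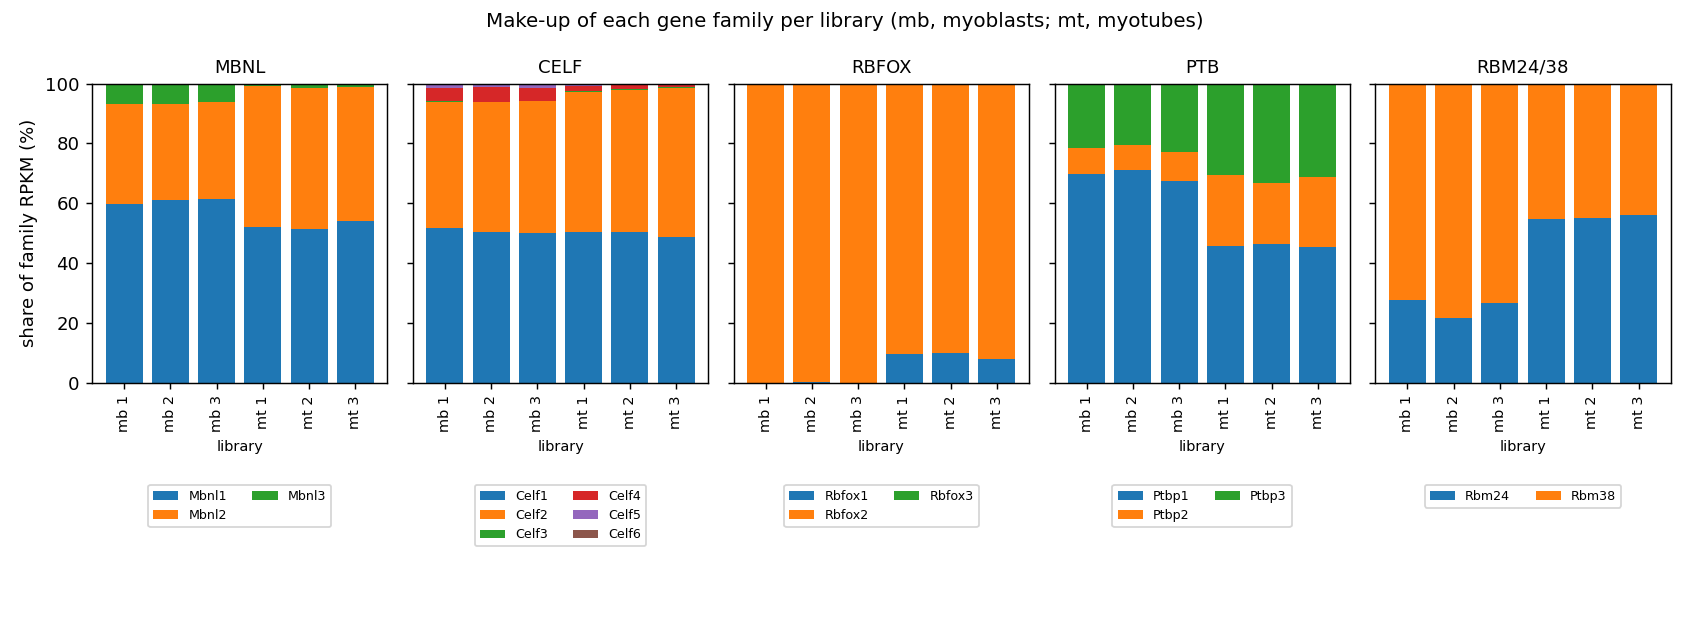
Share of each gene in its family's summed RPKM, by the longest transcript (vertical axis, percent), in each of the 6 libraries (mb, myoblasts; mt, myotubes). Colours are genes; Mbnl3 shrinks from 6.57% to 1.10% of MBNL, Ptbp1 from 69.5% to 45.8% of PTB, and Rbfox1 reaches 9.08% of RBFOX in myotubes.

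The regulators lie on separate chromosomes apart from 2 pairs. In GRCm38, Rbm24 (Entrez gene 666794) lies on chromosome 13 at 46418102 to 46431099, Ptbp1 (19205) on chromosome 10 at 79854432 to 79864435, Mbnl3 (171170) on chromosome X at 51113494 to 51205990, Rbfox2 (93686) on chromosome 15 at 77078990 to 77308434, Mbnl2 (105559) on chromosome 14 at 120275652 to 120431698 and Rbm20 (73713) on chromosome 19 at 53660989 to 53867083. Celf1 (13046) lies on chromosome 2 at 90940259 to 91019497 and Celf2 (14007) on the same chromosome at 6539694 to 7396341, and Mbnl1 (56758) and Ptbp2 (56195) lie on chromosome 3 at 60472559 to 60629750 and 119718741 to 119784647. Counts cover their annotated exons. Among all tested genes, the profile over the 6 libraries most like that of Rbm24 was that of Gprc5c, the one most like Ptbp1 was G6pdx and the one most like Mbnl3 was Usp43, at Euclidean distances of 0.222, 0.0807 and 0.189 between centred log2(CPM + 1) values. A near profile on this scale does not mean an equal fold change. The log2 change was 5.84 for Gprc5c against 5.51 for Rbm24. It was −2.13 for both G6pdx and Ptbp1, and −3.84 for Usp43 against −3.10 for Mbnl3. For the other 7 members the nearest gene lay between 0.0171, which was Snw1 for Celf2, and 0.0580.

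Among genes related to these regulators, falls far outnumbered rises in the cofactors and in the other exon regulators, beside 40.2% higher and 39.2% lower over all genes tested. The paralogs split almost evenly. Of 7 tested paralogs and relatives of the members, which include Matr3 and Zfp638 as relatives of Rbm20, 3 rose and 4 fell (2 and 4 with total counts), with a median log2 change of −0.19. Of 10 tested cofactors known to bind RBFOX or PTB proteins, 8 fell and 1 rose, with a median of −0.63. Hnrnpm, a core partner of RBFOX in the LASR complex, fell by 1.61 (SE 0.05) and Hnrnph1 by 1.47 (SE 0.04), both with groups apart. Matr3, which binds PTBP1 and is counted among the paralogs as well, rose by 0.16. That direction was not called with total counts, where 0 cofactors rose and 9 fell. Hnrnpc, the tested cofactor left uncalled, did not pass (log2 change −0.05). Hnrnpm shares 28.8% of its 50-base windows with the neighbouring March2 and Matr3 28.7% with other transcripts, so both counts are uncertain. Raver1, a corepressor of PTBP1 counted among the 8, has 99.7% of its exon bases in overlapping transcripts of the same strand, so its call is uncertain too. Raver2 had 9 reads in all and was not tested.

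Among 20 tested regulators of other tissue-dependent exons 5 rose and 13 fell (median log2 change −0.36). Khdrbs1, which encodes SAM68, fell by 1.19, while Fxr1, which is itself spliced in a muscle-specific way, rose by 1.63 (SE 0.04). Msi2 and Qk, picked once their values were known, rose by 1.52 and 0.62; the latter encodes quaking, a regulator of muscle exons. Khdrbs2, Nova1, Esrp1, Elavl2 and Elavl4, regulators of neurons or epithelia, had 0 reads in all libraries. The other untested genes of the list, picked once their values were known, had few reads. Srrm4 had 2 reads in the myoblast group and 33 in the myotube group. In the same order, Elavl3 had 1 and 7, Msi1 17 and 23, Nova2 16 and 11, and Esrp2 2 and 2. Among 13 neuron markers, Snap25, Elavl4 and Gad1 were at 0 in all 6 libraries, while others were expressed. Tubb3, Stmn2, Syn1 and Map2, picked once their values were known, had means of 241, 209, 26.9 and 25.7 CPM in myoblasts. In myotubes they had 35.2, 99.7, 17.6 and 53.8 CPM. The 13 genes summed to 691 to 722 CPM in myoblasts and 207 to 244 CPM in myotubes. Of the 7 tested, 5 fell and 2 rose, led by Nefl (log2 change −3.54) and Nefm (−3.09), which overlap each other's transcripts, while Slc17a7 rose by 3.71. Of 5 tested smooth muscle markers 3 rose, Des by 1.12 and Smtn by 0.48 among them, and 2 fell, with Cnn1 at −2.79; the 7 genes summed to 2475 to 2514 CPM in myoblasts and 4175 to 4294 CPM in myotubes. Des is also among the skeletal markers, and the other 6 summed to 1246 to 1323 CPM in myoblasts and 1558 to 1615 CPM in myotubes.

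Kinases and cofactors that act on the regulators moved both ways, 7 of 14 higher and 5 lower, with a median of 0.19. Over all genes tested 40.2% were higher and 39.2% lower, so these counts lie near the background. Cyclin D3 (Ccnd3), which with CDK4 phosphorylates CELF1, rose by 1.79 (SE 0.04), whereas Cdk4 fell by 1.40 (SE 0.04). Akt2, a kinase of insulin signalling, rose by 1.48 (SE 0.05). The counts of Cdk4 and Akt2 are uncertain, with 29.5% and 16.0% of their windows copied elsewhere. Dmpk, the gene whose repeat expansion causes myotonic dystrophy, was picked once its value was known and went from 205 ± 4.78 to 426 ± 9.57 CPM (log2 change 1.05).

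Genes whose exons these proteins are known to control were mostly higher as whole transcripts, where 40.2% of all genes tested were higher and 39.2% lower. Of 19 genes with MBNL or CELF exons, 15 rose and 1 fell (14 and 3 with total counts), with a median log2 change of 1.69. Dmd, which encodes dystrophin, had 0 reads in myoblasts and 27.8 ± 2.60 CPM in myotubes. This is at least 316-fold higher than 3 counts over the myoblast group would give. At that bound (8.30 on the log2 scale) Dmd still lay above the median, which therefore could not move from 1.69. Fast skeletal troponin T (Tnnt3) went from 4.35 ± 0.724 to 2123 ± 23.9 CPM, and Capzb, an actin capping subunit, fell by 0.58. Of 9 tested genes with RBM20 exons 8 rose and 0 fell, with a median of 1.90. Triadin (Trdn) rose by 9.28 from 5 reads in the myoblast group, and titin (Ttn), the best known RBM20 target, went from 226 ± 7.39 to 3285 ± 246 CPM (log2 change 3.86, SE 0.05). Ryr2 and Cacna1c, cardiac channel genes of the same list, had 1 and 3 reads in all libraries. Of 11 genes with PTB or RBFOX exons 8 rose and 2 fell (6 and 3 with total counts), with a median of 1.26. Mef2c rose by 8.57 and Tpm2, whose muscle exon PTBP1 represses, by 3.11, while Flna fell by 1.75. Several of these genes encode sarcomere proteins that also mark myotubes, and Tnnt3 and Atp2a1 are in the marker list itself.

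**Figure D5:**
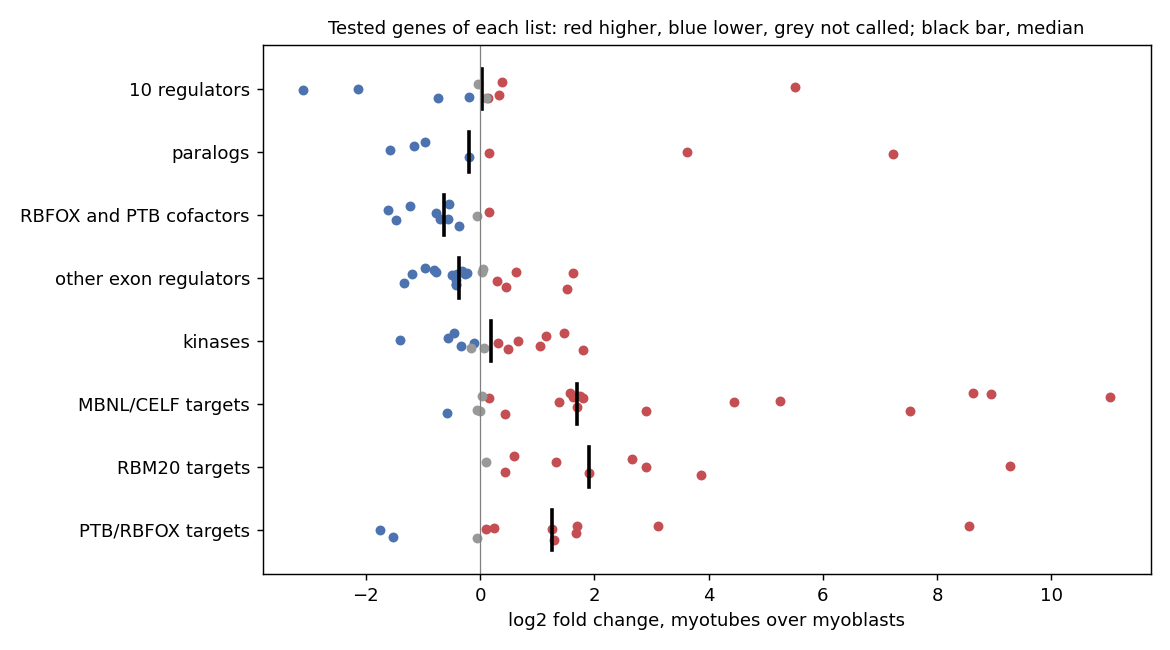
Log2 fold change of myotubes over myoblasts (horizontal axis) for the tested genes of the 10 regulators and of 7 related lists. Each point is a gene (red higher, blue lower, grey not called) and black bars are medians, which run from −0.63 for the cofactors to 1.90 for the RBM20 targets; the point at 11.03 is the fitted value of Dmd, which had 0 reads in myoblasts.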

How the data were processed

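Poly(A) RNA libraries of 3 myoblast and 3 myotube samples were compared. The deposited table holds unnormalised gene-level read counts made by the authors; the submitters' processing notes list fastp, STAR, featureCounts and mm10 without versions. Strand setting and treatment of multi-mapping reads: not given in the sources used here. Groups come from sample titles. With edgeR 4.0.16 in R 4.3.3, filterByExpr (minimum count 10, total 15) kept 12800 genes, TMM scaled the libraries, and p-values of the robust quasi-likelihood F test without a block were Benjamini-Hochberg adjusted (threshold 0.05); glmTreat tested a 2-fold change. SE values were taken as |log2 change| over √F. The code was tested on simulated data. RPKM divide CPM by the longest GENCODE M21 transcript of each gene. Of 27179 IDs, 25275 matched RefSeq (GRCm38). Copies are exact 50-base windows found in transcripts of other genes, on either strand. Replicates were not identical (chi-square per degree of freedom 1.35 to 3.22), and counting error limits genes with few reads. The members and lists were chosen with earlier results of these data known. Named genes are the members, the 2 largest called changes in the commoner direction and the largest in the other of each list (mean at least 1 CPM), and the nearest profile of each member; others are marked, and 1 gene is not reported here. Alternatives were DESeq2 1.42.0 size factors and Wald test, total counts, limma-voom (limma 3.58.1), the replicate number as a block, no filter on low counts, a minimum of 1 CPM in 3 or more libraries, leaving out each library, and, for ratios, an offset of 1 CPM and scaling per kilobase of exon. Scaling per longest transcript and the use of all 6 CELF genes were added after seeing the data. Exon inclusion and protein sequences were not analysed here.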

Additional observations from a re-analysis of the deposited data

How the results depend on the processing

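In 13 alternatives the number of the 10 regulators called stayed between 7 and 9, and that of all genes between 9496 and 11105. Of the 130 member values, 123 kept their direction and their side of the threshold. The exceptions were Celf1 with total counts (0.00091), Mbnl2 with total counts (−0.17) and, with a turned sign, without myotube library 3 (0.016, within −0.071 to 0.016 over the 6 left-out libraries), Rbm20 with total counts, also with a turned sign (−0.050), and without myotube library 1 (0.14), and Ptbp2 without myoblast library 3 (−0.14) or myotube library 2 (−0.14), all as log2 changes. With replicate number as a block, 8 regulators and 10161 genes were called, against 8 and 10170 without it. Same-numbered libraries did not deviate together (correlations of −0.0018, 0.0105 and 0.00035 for numbers 1, 2 and 3), and not every library correlated best with its own number, so the numbers are not taken to pair the samples. The number of genes called in each list, both directions together, stayed within 1.5 times its value; by direction, the MBNL and CELF targets that fell went from 1 to as many as 3, and the cofactor that rose from 1 to 0, both with total counts. The drop in the Mbnl3 share of MBNL, −4.58 percentage points by CPM, was −7.90 per kilobase of the union of exons and −5.47 per kilobase of the longest transcript, since each scale divides the 3 genes by other lengths. Mbnl3 in myotubes and Rbm24 in myoblasts, with 77 and 182 reads per group, are the members whose levels depth limits most.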
